A study of Mus musculus with 9 samples.

Results

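The genes described are 10 regulators that set or maintain epithelial identity: Grhl1, Grhl2, Ovol1, Ovol2, Elf3, Ehf, Klf5, Esrp1, Esrp2 and Rbm47. They were chosen by name, and all 10 were found among the 24493 genes of the deposited TPM table. The study profiled RNA of cultured mouse pancreatic tumor cells on the C57BL/6 background. It has 9 libraries in 3 groups of 3, all untreated and kept in DMEM with fetal bovine serum: the parental line, escape e1 and escape e2. The series describes the escape lines as resistant to immunotherapy and derived from a parental line. The labels name no agent by which resistance arose, and do not state whether e1 and e2 are clones or whether the libraries of a group are separate cultures. The p-values therefore measure the spread between these libraries, which may be technical.

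In background terms, epithelial cells hold their polarity and junctions through a small set of transcription factors. The grainyhead-like factors Grhl1 and Grhl2 open the enhancers of junction genes such as Cdh1 and the claudins. The zinc finger repressors Ovol1 and Ovol2 hold down mesenchymal factors, among them Zeb1, which in turn represses epithelial genes. Elf3 and Ehf are epithelium-restricted members of the ETS family, and Klf5 is a Krüppel-like factor of proliferating epithelium. Esrp1 and Esrp2 are RNA-binding proteins that direct the epithelial splice forms of genes such as Fgfr2, Cd44 and Ctnnd1, and Rbm47 is an RNA-binding protein of epithelia with roles in splicing, RNA editing and mRNA stability. Loss of some of these regulators is a known feature of the transition to a mesenchymal state.

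RefSeq promoter windows on GRCm38.p6 were at hand for 4 of the 10 genes, Elf3, Grhl1, Ovol2 and Rbm47, and hold the start sites of genes that were low together in both escape lines. No window was matched for Grhl2, Ovol1, Ehf, Klf5, Esrp1 or Esrp2. Shown 5′ to 3′ are the 250 bases before the start site, for Elf3 at chr1:135258473-135258722 (minus strand), Grhl1 at chr12:24572037-24572286 (plus strand), Ovol2 at chr2:144331363-144331612 (minus strand) and Rbm47 at chr5:66151955-66152204 (minus strand, the first of its 3 windows). Capitals mark matches to the motifs searched.
Elf3: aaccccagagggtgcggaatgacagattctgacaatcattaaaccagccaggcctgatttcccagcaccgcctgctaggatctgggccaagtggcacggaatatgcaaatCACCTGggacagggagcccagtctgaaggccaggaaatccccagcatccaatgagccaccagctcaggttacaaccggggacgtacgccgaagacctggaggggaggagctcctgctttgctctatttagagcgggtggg
Grhl1: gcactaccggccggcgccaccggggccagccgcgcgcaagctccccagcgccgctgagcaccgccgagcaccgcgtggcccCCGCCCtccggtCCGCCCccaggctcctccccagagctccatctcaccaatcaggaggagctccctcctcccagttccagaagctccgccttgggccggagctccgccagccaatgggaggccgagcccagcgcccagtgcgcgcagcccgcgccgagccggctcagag
Ovol2: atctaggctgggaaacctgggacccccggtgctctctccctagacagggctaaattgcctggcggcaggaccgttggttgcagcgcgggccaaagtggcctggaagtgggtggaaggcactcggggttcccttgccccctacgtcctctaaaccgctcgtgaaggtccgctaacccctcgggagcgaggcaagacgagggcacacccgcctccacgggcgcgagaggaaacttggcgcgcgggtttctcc
Rbm47: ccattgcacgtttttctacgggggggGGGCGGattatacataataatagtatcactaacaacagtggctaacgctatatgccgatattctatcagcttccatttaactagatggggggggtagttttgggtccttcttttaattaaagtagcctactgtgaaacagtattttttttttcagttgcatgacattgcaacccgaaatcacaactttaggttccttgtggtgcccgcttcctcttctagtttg

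Windows of 300 bases, 250 before and 50 after a start site, were searched on both strands for 5 motifs. CAGGTG, read as CACCTG on the other strand, is the E-box bound by ZEB and SNAI repressors. It lay 140 bases upstream in the Elf3 window and in no other of the 7 windows of these genes, and 20.2% of all 32851 windows hold it. GGGCGG, a KLF and SP motif, lay 169 and 157 bases upstream of Grhl1, as CCGCCC, and 224 bases upstream of Rbm47. It was in 2 of the 7 windows, and 35.7% of all windows hold it. The grainyhead motif AACCNGGTT (0.271% of all windows), the OVOL motif CCGTTA (2.76%) and the ETS motif CGGAAG (16.9%) were in none of the 7. The motifs do not overlap in the matches shown, and a match is only a description of the letters.

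Expression is given as TPM, transcript abundance corrected for length and scaled to the same total in each library, which allows levels of different genes to be compared per length but keeps no sequencing depth. The libraries held 11188 to 12039 genes at 1 TPM or more. Correlations over tested genes (Pearson, log2 values) were 0.987 to 0.995 between libraries of a group and 0.840 to 0.863 between parental and escape libraries. Epithelial markers were present in parental cells, where the 10 markers summed to 8724 to 9902 TPM, against 1185 to 1224 in e1 and 1718 to 1783 in e2. Of these 10, 9 were lower and 1 higher in each line, where 34.9% of all genes were called lower in e1 and 32.7% in e2. Krt8 and Krt18, keratins of simple epithelia, made up most of the sum in the escape lines, at 747 ± 52.2 and 377 ± 56.2 TPM (SD, n = 3) in e1 and 576 ± 5.01 and 1012 ± 20.9 TPM in e2. Krt7, a keratin of ductal epithelium, stood at 2264 ± 163 TPM in parental cells, 1.05 ± 0.182 TPM in e1 and 28.1 ± 1.79 TPM in e2. Epcam, Cldn4, Cldn7 and Muc1 had means under 1 TPM in e1. Epcam, Cldn4 and Cldn7 were under 1 TPM in e2 too, so they were tested through the parental libraries alone and had to differ. The marker that was higher was Sox9, a factor of ductal and progenitor cells, at 6.07 ± 2.16, 17.6 ± 2.52 and 41.4 ± 2.20 TPM in the 3 groups. The 12 fibroblast markers summed to 17.1 to 20.1 TPM in parental cells, 331 to 360 in e1 and 324 to 336 in e2. Of the 10 fibroblast markers tested, 8 were higher in e1 and 0 lower, where 35.7% of all genes were called higher. In e2 8 were higher and 1 lower, where 40.8% were called higher. In parental cells 11 of the 12 had means under 1 TPM. Those of them that were tested entered through escape libraries, so these counts are no support. Col1a2, a collagen gene, was among those higher in both. The one lower in e2 was Fbln1, a matrix fibulin and the only one of the 12 above 1 TPM in parental cells on average, at 17.6 ± 1.69 TPM there, 17.0 ± 2.78 TPM in e1 and 8.87 ± 0.683 TPM in e2. Lum was listed at 0 in all 9 libraries, and 5 of the 12 in all 3 parental ones, among them Col1a2, Col3a1 and Dcn. In bulk RNA, fewer cells of a type and less RNA per cell cannot be told apart. The 12 leukocyte markers summed to at most 4.62 TPM in parental and e1 libraries and to 12.1 to 17.5 TPM in e2, with Cd3e and Nkg7 listed at 0 throughout and S100a8 highest, at 7.62 ± 2.27 TPM in e2. The part of these other markers in the results was not tested. The 8 endothelial markers summed to at most 0.945 TPM in any library.

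The parental cells expressed all 10 regulators, and in the escape lines Klf5 was the only one above 3.27 TPM in any library. The summed level of the 10 genes was 222 to 226 TPM in the parental libraries, 31.4 to 36.9 TPM in e1 and 22.7 to 25.6 TPM in e2, most of it Klf5 in the escape lines. For each of the 10 genes the 3 parental libraries lay above all 6 escape libraries. In the fit over all 12769 genes tested (limma on log2(TPM + 1), Benjamini-Hochberg adjustment), all 9 regulators tested were lower in e1, where 34.9% of all genes were called lower and 35.1% had libraries lower without overlap. All 9 were also lower in e2, where these shares were 32.7 and 36.2%. The comparisons share the parental libraries. A gene was tested if it reached 1 TPM in at least 3 libraries. Parental library 1 was the highest (5 genes) or the lowest (5 genes) of its group for all 10, and leaving it out changed no call against parental cells. Of the 9 tested regulators, 5 did so through the parental libraries alone and so had to differ, which means that the count itself is no support. Ovol1 reached it in 2 libraries and was not tested. With no filter (19340 genes) it was called lower too, so that 10 of 10 were called in each line, against 27.4% of all genes in e1 and 25.1% in e2. Below, fold changes are differences of mean log2(TPM + 1) ± SE. On this scale the change of a gene near 0 comes out smaller than it is. Adjusted p-values are from limma.

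**Figure D1:**
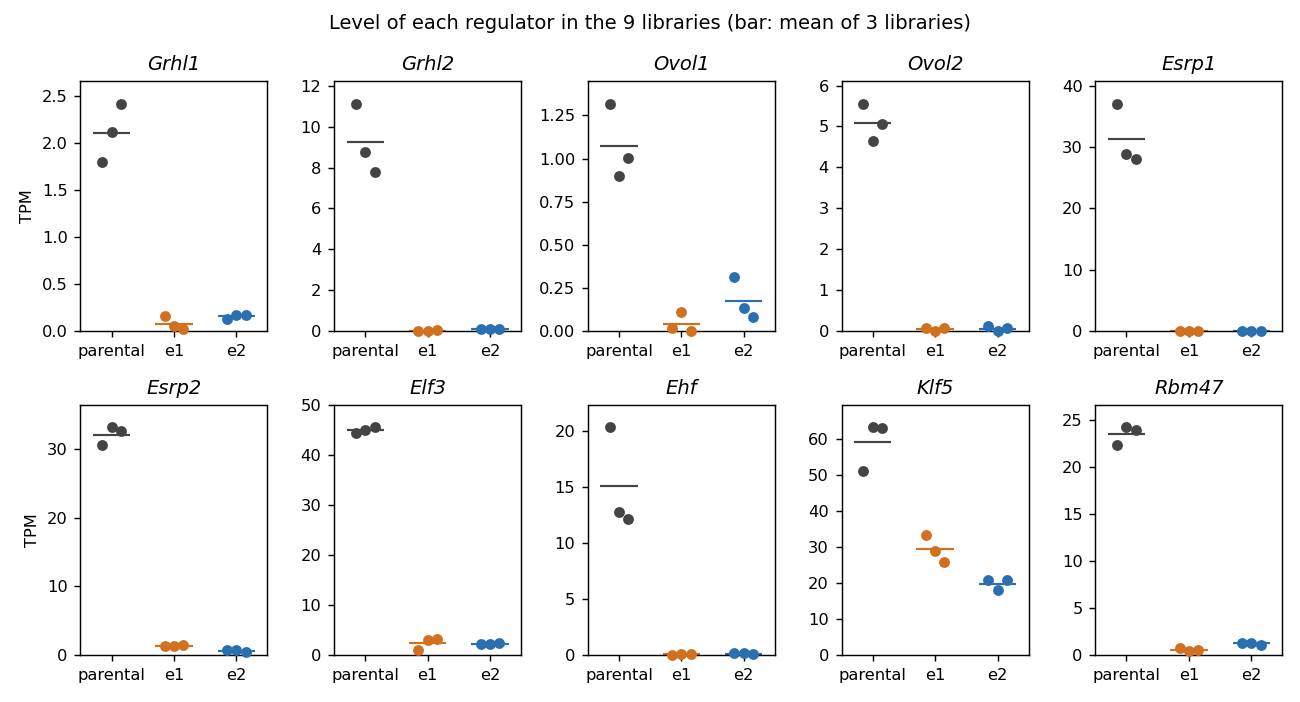
TPM of each of the 10 regulators in each library, 3 points per group with a bar at the mean, each panel on its own linear axis from 0. The parental points lie above all escape points in every panel, and Klf5 keeps 29.4 TPM in e1 and 19.8 TPM in e2 on average.

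Of the grainyhead-like factors, Grhl2 had the higher level in parental cells. Grhl2 (chromosome 15, 37233036 to 37363569, GRCm38, as for all coordinates here) stood at 11.1, 8.76 and 7.80 TPM in parental libraries 1 to 3, at 0.0217, 0 and 0.0461 TPM in e1, and at 0.103, 0.107 and 0.106 TPM in e2. Parental library 1 was the highest, and the 3 groups did not overlap, with every e2 library above every e1 library. In log2 units Grhl2 changed by -3.31 ± 0.11 in e1 (adjusted p = 5.53e-09) and -3.20 ± 0.11 in e2 (adjusted p = 6.48e-09). The mean level was 0.245% of the parental mean in e1 and 1.14% in e2.

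Grhl1 (chromosome 12, 24572283 to 24617391) was low already in parental cells, at 1.80, 2.12 and 2.42 TPM. It stood at 0.159, 0.0528 and 0.0251 TPM in e1 and at 0.131, 0.178 and 0.175 TPM in e2, so that the escape lines overlapped through e1 library 1. The log2 fold change was -1.53 ± 0.09 in e1 (adjusted p = 3.2e-07) and -1.42 ± 0.09 in e2 (adjusted p = 4.74e-07), and the means were 3.74 and 7.62% of the parental mean. The third grainyhead-like gene, Grhl3, stood at 0.384, 0.218 and 0.376 TPM in parental cells and at 0 to 0.0891 TPM in the escape libraries, and did not reach the filter.

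Ovol2 (chromosome 2, 144305175 to 144332146), the OVO-like repressor with the higher level here, stood at 5.55, 4.64 and 5.05 TPM in parental cells. In e1 it stood at 0.0803, 0 and 0.0711 TPM and in e2 at 0.120, 0 and 0.0704 TPM, with 1 library of each line listed at 0 and the lines overlapping. Ovol2 thus had a log2 fold change of -2.53 ± 0.08 in e1 (adjusted p = 5.59e-09) and -2.51 ± 0.08 in e2 (adjusted p = 5.56e-09). Ovol1 (chromosome 19, 5549136 to 5560646) was the lowest of the 10 genes in parental cells, at 1.32, 0.896 and 1.002 TPM. It stood at 0.0190, 0.114 and 0 TPM in e1 and at 0.316, 0.134 and 0.0796 TPM in e2, below the parental libraries in all 6. With no filter its log2 fold change was -0.98 ± 0.10 in e1 (adjusted p = 3.19e-05) and -0.82 ± 0.10 in e2 (adjusted p = 9.93e-05). The relative Ovol3 was at 0.0798 TPM or less in every library.

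The ETS factors differed in how much was left. Elf3 (chromosome 1, 135253575 to 135258568) stood at 44.3, 45.1 and 45.5 TPM in parental cells, at 1.07, 2.99 and 3.27 TPM in e1 and at 2.22, 2.12 and 2.35 TPM in e2. It was above 1 TPM in all 9 libraries, and e1 library 1 lay apart from the other e1 libraries. The log2 fold change was -3.81 ± 0.23 in e1 (adjusted p = 3.35e-07) and -3.83 ± 0.23 in e2 (adjusted p = 2.81e-07), with 5.43 and 4.96% of the parental mean left. Ehf (chromosome 2, 103263433 to 103303278) stood at 20.3, 12.8 and 12.1 TPM in parental cells, where library 1 was the highest. In the escape lines it was at 0.0123, 0.110 and 0.105 TPM (e1) and 0.131, 0.156 and 0.0515 TPM (e2), and the lines overlapped. Ehf had a log2 fold change of -3.87 ± 0.16 in e1 (adjusted p = 3.06e-08) and -3.82 ± 0.16 in e2 (adjusted p = 2.91e-08), with 0.502 and 0.751% of the parental mean left.

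Klf5 (chromosome 14, 99298691 to 99315036) was the highest of the 10 genes in all 3 groups and fell least relative to its parental level. It stood at 51.2, 63.2 and 63.1 TPM in parental cells, at 33.4, 28.8 and 26.0 TPM in e1 and at 20.7, 17.9 and 20.8 TPM in e2. The groups did not overlap and were ordered parental, e1, e2. The log2 fold change was -0.99 ± 0.11 in e1 (adjusted p = 3.2e-05) and -1.53 ± 0.11 in e2 (adjusted p = 1.27e-06), which left 49.7 and 33.5% of the parental mean.

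The splicing regulators Esrp1 and Esrp2 had like levels in parental cells and unlike levels in the escape lines. Esrp1 (chromosome 4, 11331933 to 11386783) stood at 37.1, 29.0 and 28.1 TPM in parental cells, at 0.0410, 0.0220 and 0 TPM in e1 and at 0, 0.0193 and 0.0205 TPM in e2. No other of the 10 genes had a lower mean in e1 or e2, at 0.0668 and 0.0423% of the parental mean. Its log2 fold change was -4.98 ± 0.10 in e1 (adjusted p = 3.18e-10), the 78th lowest of 12769 genes, and -4.99 ± 0.10 in e2 (adjusted p = 2.95e-10), the 46th lowest. Mean log2(TPM + 1) of Esrp1 was 5.01 in parental cells, 0.03 in e1 and 0.02 in e2. With both lines near 0, these changes and ranks mostly follow its parental level.

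Esrp2 (chromosome 8, 106130319 to 106136974) stood at 30.6, 33.1 and 32.6 TPM in parental cells, overlapping Esrp1 there. It kept 1.35, 1.27 and 1.44 TPM in e1 and 0.666, 0.703 and 0.434 TPM in e2, above Esrp1 in all 6 escape libraries. The log2 fold change was -3.81 ± 0.09 in e1 (adjusted p = 4.86e-10) and -4.37 ± 0.09 in e2 (adjusted p = 2.19e-10), with 4.22 and 1.87% of the parental mean left. Exons of Esrp2 overlap those of Nfatc3 and 1810019D21Rik on the opposite strand. The strand setting of the quantification is not given in the sources used here, so reads of overlapping exons cannot be told apart. Nfatc3, a transcription factor of the NFAT family, stood at 30.5 ± 3.03 TPM in parental cells, 26.8 ± 1.57 TPM in e1 and 18.3 ± 0.423 TPM in e2. The noncoding 1810019D21Rik stood at 10.3 ± 0.575, 0.380 ± 0.239 and 0.275 ± 0.109 TPM.

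Rbm47 (chromosome 5, 66016549 to 66173118) stood at 22.3, 24.2 and 24.0 TPM in parental cells, at 0.729, 0.410 and 0.492 TPM in e1 and at 1.24, 1.31 and 1.099 TPM in e2. The 3 groups did not overlap, and e2 lay between parental cells and e1. Rbm47 had a log2 fold change of -3.99 ± 0.09 in e1 (adjusted p = 5.53e-10) and -3.47 ± 0.09 in e2 (adjusted p = 1.29e-09), with 2.31 and 5.17% of the parental mean left. Its relative A1cf, a cofactor of mRNA editing, stood at 0.370, 0.388 and 0.364 TPM in parental cells and was listed at 0 in all 6 escape libraries.

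**Figure D2:**
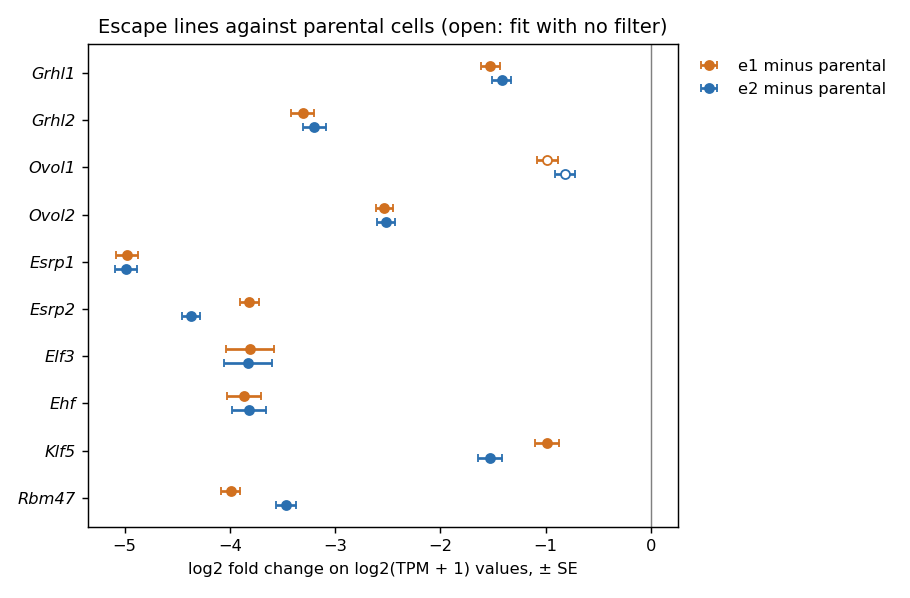
Log2 fold change of each regulator in e1 and e2 against parental cells on the log2(TPM + 1) scale, with SE as horizontal bars. All values are below 0, from -4.98 for Esrp1 to -0.99 for Klf5 among the regulators tested in e1, and the open circles give Ovol1 from the fit with no filter.

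The order of levels in parental cells was Klf5, Elf3, Esrp2, Esrp1, Rbm47, Ehf, Grhl2, Ovol2, Grhl1 and Ovol1, from a mean of 59.2 to 1.07 TPM. Esrp2 and Esrp1 were the neighbours in this order whose libraries overlapped. In e1 the order was Klf5, Elf3, Esrp2, Rbm47, Grhl1, Ehf, Ovol2, Ovol1, Grhl2 and Esrp1. There Elf3 overlapped Esrp2, and each of the last 6 genes, all at means of 0.0791 TPM or less, overlapped the next. In e2 it was Klf5, Elf3, Rbm47, Esrp2, Ovol1, Grhl1, Ehf, Grhl2, Ovol2 and Esrp1. The first 4 did not overlap their neighbours there, while the last 6, at 0.177 TPM or less, each overlapped the next.

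The comparison of e2 with e1 asks whether the lines differ in these genes, and 3 of the 9 tested did. Esrp2 and Klf5 were lower in e2, by -0.56 ± 0.09 (adjusted p = 0.000278) and -0.54 ± 0.11 (adjusted p = 0.00178), where 29.7% of all genes were called lower. Of the genes overlapping Esrp2, Nfatc3 was also lower in e2, by -0.52 ± 0.08 (adjusted p = 0.000209), and 1810019D21Rik was not called (-0.10 ± 0.13). Whether reads of Nfatc3 enter the Esrp2 value was not tested. Rbm47 was higher, by 0.53 ± 0.09 (adjusted p = 0.000679), where 40.6% were called higher. Over all genes 70.3% were called in either direction. The libraries of e1 and e2 did not overlap for 4 of the 10 regulators: Esrp2 and Klf5 were lower in e2 (32.3% of all genes tested), and Grhl2 and Rbm47 were higher (44.3%).

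For the 6 that were not called, the 95% interval of the difference is given on the log2(TPM + 1) scale. All of them but Elf3 had means of 0.161 TPM or less in both lines. At such levels this scale shrinks a relative difference, so their intervals do not bound it and do not show that the lines are alike. It ran from -0.10 to 0.31 for Grhl1, from -0.14 to 0.36 for Grhl2 and from -0.17 to 0.21 for Ovol2. For Esrp1 it ran from -0.25 to 0.22 and for Ehf from -0.32 to 0.42. Elf3 had the widest, from -0.54 to 0.49 (difference -0.02 ± 0.23, adjusted p = 0.937). Without e1 library 1 Elf3 was lower in e2, by -0.36 (adjusted p = 0.000529). Grhl2, whose libraries did not overlap between the lines, passed with a pseudocount of 0.1 (0.76, adjusted p = 0.00795) and with the authors' rlog values (0.62, adjusted p = 0.00353), though both lines were at 0.107 TPM or less.

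**Figure D3:**
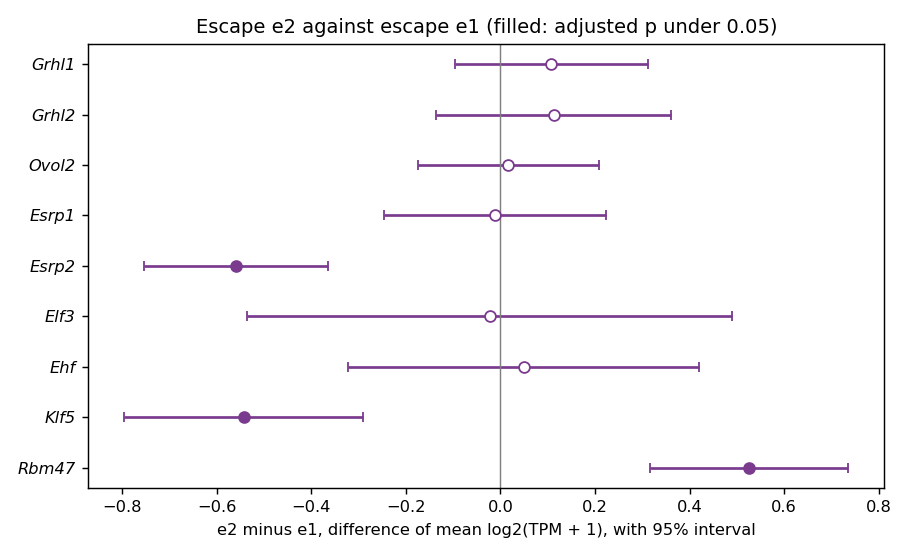
Difference of e2 and e1 in mean log2(TPM + 1) for the 9 regulators tested, with 95% intervals, filled where the adjusted p was under 0.05. Esrp2 and Klf5 lie below 0 and Rbm47 above 0, and the intervals of the other 6 include 0.

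Each regulator was then set beside the 3 tested genes most like it, by the root mean square difference of centred log2(TPM + 1) values over the 9 libraries. Nearest to Esrp1 was Bex1, at 0.02, with 30.6 TPM in parental cells and 0 in all escape libraries, followed by Ugt2b34 (0.08), a glucuronosyltransferase, and Gpa33 (0.09), an intestinal surface antigen. Ovol2 had Tinag (0.06), Gjb1 (0.06), a gap junction connexin, and Pof1b (0.07). Grhl1 had Homer2 (0.07), P2ry6 (0.08) and Sox13 (0.09). Grhl2 had Hpgd (0.08), a prostaglandin-degrading enzyme, Snai3 (0.09), a zinc finger gene of the Snail family, and Slc44a3 (0.10). Ehf had Slc44a4 (0.10), Tmprss11e (0.11), a transmembrane serine protease, and Sowahb (0.11). Klf5 lay near Ppip5k2 (0.10), Slc7a6 (0.10), an amino acid transporter, and Polr2h (0.10), an RNA polymerase subunit, with group means of 8.79 TPM or more. Rbm47 had Gca (0.13), Hgfac (0.14) and Serpinb5 (0.14). Esrp2 and Elf3 had the least close neighbours by this measure, Dok2 (0.17), Igsf5 (0.22) and Vnn1 (0.23) for Esrp2 and Scel (0.21), Myo5c (0.21) and Paqr5 (0.21) for Elf3. The likeness is that of 3 group levels over few libraries, and is a description only.

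The pairs of related genes are not near-identical. In GENCODE M21 transcripts, aligned coding bases were 68.1% identical between Grhl1 and Grhl2, 66.1% between Ovol1 and Ovol2, 63.9% between Esrp1 and Esrp2 and 63.0% between Elf3 and Ehf. Stretches of 31 bases shared by both members of a pair numbered 5 for Esrp1 and Esrp2 and 0 for the other 3 pairs. For 7 of the 10 genes, exons overlap an annotated gene on the opposite strand: Grhl2, Ovol1, Ovol2, Esrp1, Esrp2, Elf3 and Rbm47. Of the 9 opposite-strand genes concerned, 2 reached the filter, both at Esrp2 as given above.

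The 10 genes lie on 9 chromosomes, and the tested genes next to them moved in both directions. The nearest tested protein-coding gene on either side, 2.6 to 2127.3 kb away (median 41.4 kb), gave 20 neighbours. In e1 7 of these were lower, 9 higher and 4 not called, with a median log2 fold change of -0.01. In e2 5 were lower, 7 higher and 8 not called (median -0.03). These shares of lower calls, 7 and 5 of 20, stand beside the 34.9 and 32.7% over all genes. The neighbours of Esrp1, Dpy19l4 and Virma, stood at 119 and 168% of their parental means in e1 and 194.5 and 174% in e2. Those of Ehf, Apip and Cat, stood at 140.0 and 134% in e1 and 169 and 88.1% in e2. Genes that did not reach the filter could not be neighbours here. Among them was Elf5, near Ehf, at 0.894 to 0.921 TPM in parental cells and at most 0.0266 TPM in escape libraries. The lowest neighbours were N4bp2, next to Rbm47, at 37.5% in e1, and Ncald, next to Grhl2, at 16.4% in e2. Both were well above the regulator beside them, at 2.31% for Rbm47 in e1 and 1.14% for Grhl2 in e2. These neighbours were looked at after the regulators' values were known.

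**Figure D4:**
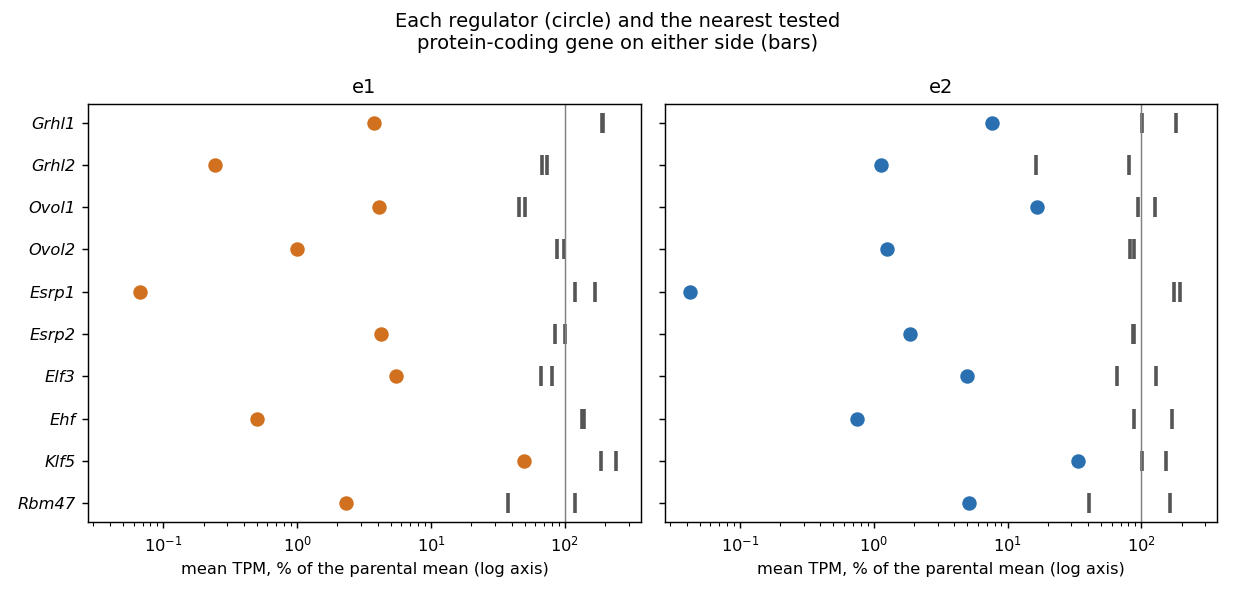
Mean TPM in e1 and e2 as a percent of the parental mean on a log axis, for each regulator (circle) and its nearest tested protein-coding gene on either side (bars). In each row the circle lies to the left of both bars. The lowest bars are N4bp2, beside Rbm47, at 37.5% in e1 and Ncald, beside Grhl2, at 16.4% in e2.

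Epithelial genes known as targets of GRHL2 were lower in both lines. All 25 genes on this list were tested, and 25 were lower in e1 and 25 in e2, where 34.9 and 32.7% of all genes were. In e1 19 of them had means under 1 TPM and in e2 18, so that many were tested through the parental libraries. The list had median log2 fold changes of -4.74 in e1 and -3.63 in e2, beside medians of 0.02 and 0.07 over all genes tested. Cdh1, the gene of E-cadherin, stood at 227 ± 4.92 TPM in parental cells, 9.56 ± 2.58 TPM in e1 and 21.0 ± 0.82 TPM in e2. Cldn7, a tight junction claudin, stood at 195 ± 6.70, 0.614 ± 0.0511 and 0.298 ± 0.0589 TPM. Ap1m2, an epithelial clathrin adaptor subunit, stood at 51.8, 31.3 and 30.8 TPM in parental libraries and was listed at 0 in all 6 escape libraries. Between the lines, 11 of the 25 were higher in e2 and 3 lower, beside 40.6 and 29.7% of all genes. Cldn3, another claudin, stood at 0.253 ± 0.104 TPM in e1 and 26.9 ± 2.10 TPM in e2 (4.48 ± 0.09, adjusted p = 7.22e-10), and Spint2, an inhibitor of serine proteases, at 4.54 ± 0.689 and 48.0 ± 0.463 TPM (3.15 ± 0.08). The 3 lower in e2 were Macc1, at 4.84 ± 0.433 and 0.247 ± 0.0820 TPM (-2.23 ± 0.14), Lad1, a basement membrane filament protein, at 25.6 ± 1.75 and 13.4 ± 0.760 TPM (-0.88 ± 0.11), and Cldn7 (-0.31 ± 0.07). Cldn4 (-7.56 ± 0.17 in e1 and -7.44 ± 0.17 in e2) and Epcam, an epithelial adhesion protein (-6.67 ± 0.15 and -6.80 ± 0.15), were not called between the lines (0.12 ± 0.17 and -0.13 ± 0.15).

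Other epithelial transcription factors were lower in part. Of 20 genes, 15 were tested. In e1 11 were lower and 3 higher (median -2.25), and in e2 11 were lower and 4 higher (median -1.18). The shares over all genes were 34.9% lower and 35.7% higher in e1, and 32.7 and 40.8% in e2. Hnf4a, a hepatocyte nuclear factor also active in gut and pancreatic epithelium, stood at 71.0 ± 7.89 TPM in parental cells and at 0.0466 ± 0.0548 and 0.621 ± 0.0177 TPM in e1 and e2. Gata6, an endodermal GATA factor, changed by -4.18 ± 0.11 and -3.09 ± 0.11, and Cdx2, an intestinal homeobox factor, by -2.25 ± 0.24 and -4.14 ± 0.24. Tfap2a, a factor of surface ectoderm and neural crest, was higher in both lines, at 1.87 ± 0.11 and 2.37 ± 0.11, as was the retinoic acid receptor gene Rarg, at 0.51 ± 0.14 and 1.46 ± 0.14, and the orphan nuclear receptor gene Nr2f2, at 0.52 ± 0.07 and 0.45 ± 0.07. Tbx3, a T-box factor, was at 0.0232 TPM or less in parental and e1 libraries and at 8.37, 8.05 and 8.16 TPM in e2. Between the lines 8 of the 15 were higher in e2 and 2 lower, beside 40.6 and 29.7% of all genes.

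Relatives from the same gene families showed no common direction. Of 22 relatives 16 were tested, of which 5 were lower and 4 higher in e1 (median 0.05) and 6 were lower and 7 higher in e2 (median -0.11). The shares over all genes were 34.9% lower and 35.7% higher in e1, and 32.7 and 40.8% in e2. The counts are near these shares. With both the rlog values and median-ratio scaling, 9 were lower and 7 higher in e2. Klf4, a factor of differentiated epithelium, stood at 32.2 ± 2.68 TPM in parental cells, 7.67 ± 0.528 TPM in e1 and 56.5 ± 0.694 TPM in e2, so that it moved in opposite directions in the lines (-1.94 ± 0.07 and 0.80 ± 0.07). Klf2 rose in both, at 1.82 ± 0.15 and 1.40 ± 0.15, as did Elf2, at 0.62 ± 0.05 and 0.47 ± 0.05. Klf6 fell in e2, by 0.46, and stood at 108 ± 14.0 TPM in parental cells and 106 ± 3.40 TPM in e1. Tfcp2l1, of the grainyhead superfamily, fell in both, at -1.90 ± 0.11 and -1.03 ± 0.11. Elf5, an ETS factor of glandular epithelium that lies near Ehf, stood at 0.896, 0.921 and 0.894 TPM in parental cells, and at 0.0266 TPM or 0 in the escape libraries.

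Transcription factors that drive mesenchymal transition were mostly higher. Of 12 genes, all tested, 11 were higher and 1 lower in e1 (median 1.81), where 35.7% of all genes were called higher. In e2 10 were higher and 1 lower (median 1.93), against 40.8% higher over all genes. In parental cells 4 of the 12 had means under 1 TPM: Zeb2, Snai1, Foxc2 and Prrx1. They entered the test through escape libraries, so their part of the counts is no support. Zeb1, which represses epithelial genes, stood at 4.82 ± 0.674 TPM in parental cells, 12.1 ± 0.219 TPM in e1 and 10.8 ± 0.396 TPM in e2 (1.18 ± 0.09 and 1.03 ± 0.09). Zeb2 rose by 2.29 ± 0.11 and 2.46 ± 0.11, and Snai1, at 0.902, 0.356 and 0.244 TPM in parental cells, rose by 4.47 ± 0.14 and 3.21 ± 0.14. Twist1 rose by 4.19 ± 0.09 and 3.73 ± 0.09, Twist2 by 3.43 ± 0.12 and 4.04 ± 0.12, and Prrx1, a homeobox factor of mesenchyme, by 0.77 ± 0.07 and 5.94 ± 0.07. Snai2 rose in e1, at 2.29 ± 0.10, and stood at 3.69 ± 0.122 TPM in e2 against 4.18 ± 0.399 TPM in parental cells (-0.14 ± 0.10, adjusted p = 0.233). The member that fell was Snai3, at 10.0, 8.84 and 9.01 TPM in parental libraries, 0.0521 to 0.147 TPM in e1 and 0.104 to 0.175 TPM in e2 (-3.25 ± 0.08 and -3.17 ± 0.08). Snai3 was tested through the parental libraries alone and so had to differ, and its lower call is no support. Neither Zeb1 nor Zeb2 was called between the lines (-0.15 ± 0.09 and 0.17 ± 0.11). Zeb1 was called lower in e2 than in e1 in the rlog values and after median-ratio scaling.

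Other splicing regulators changed in both directions. Of 29 genes 22 were tested, of which 8 were higher and 4 lower in e1 (median 0.09) and 7 higher and 9 lower in e2 (median -0.15). The shares over all genes were 35.7% higher and 34.9% lower in e1, and 40.8 and 32.7% in e2. Rbfox2, known to favour mesenchymal splice forms, rose from 13.8 ± 0.182 TPM to 33.5 ± 1.02 TPM in e1 and 32.7 ± 0.875 TPM in e2 (1.22 ± 0.05 and 1.19 ± 0.05). Mbnl1, a muscleblind factor, rose by 1.08 ± 0.10 and 1.29 ± 0.10, Mbnl3 fell by 0.34 and 1.27, and Qk, the quaking factor, by 0.34 and 0.41. Hnrnpa1 fell in e2, by 0.60, and stood at 403 ± 15.3 TPM in parental cells and 399 ± 78.1 TPM in e1. Khdrbs3, of the STAR family, was at 0 in each parental library, at 0.0903 to 0.385 TPM in e1 and at 13.0, 12.3 and 12.6 TPM in e2. Ptbp1, a broadly expressed splicing repressor, did not pass (-0.05 ± 0.08 and -0.16 ± 0.08), and was called lower in e2 by both the rlog values and median-ratio scaling, under which 6 genes of the list were higher and 11 lower in e2.

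Genes whose transcripts ESRP proteins splice were measured here only as gene totals, which do not show splice forms. Of 12 genes 11 were tested, of which 7 were lower and 3 higher in e1 (median -0.31) and 8 lower and 3 higher in e2 (median -0.41). The shares over all genes were 34.9% lower and 35.7% higher in e1, and 32.7 and 40.8% in e2. Cd44, a hyaluronan receptor, stood at 119 ± 12.4 TPM in parental cells, 240.0 ± 46.4 TPM in e1 and 334 ± 7.01 TPM in e2. Magi1, a junction scaffold, fell by 1.12 and 1.33 on the log2 scale, and Enah, an actin regulator, by 0.54 and 1.06. Arhgef11 rose by 0.49 and 0.75. Fgfr2, the receptor whose splice forms mark epithelium and mesenchyme, was at 0.275 TPM or less in every library and was not tested.

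**Figure D5:**
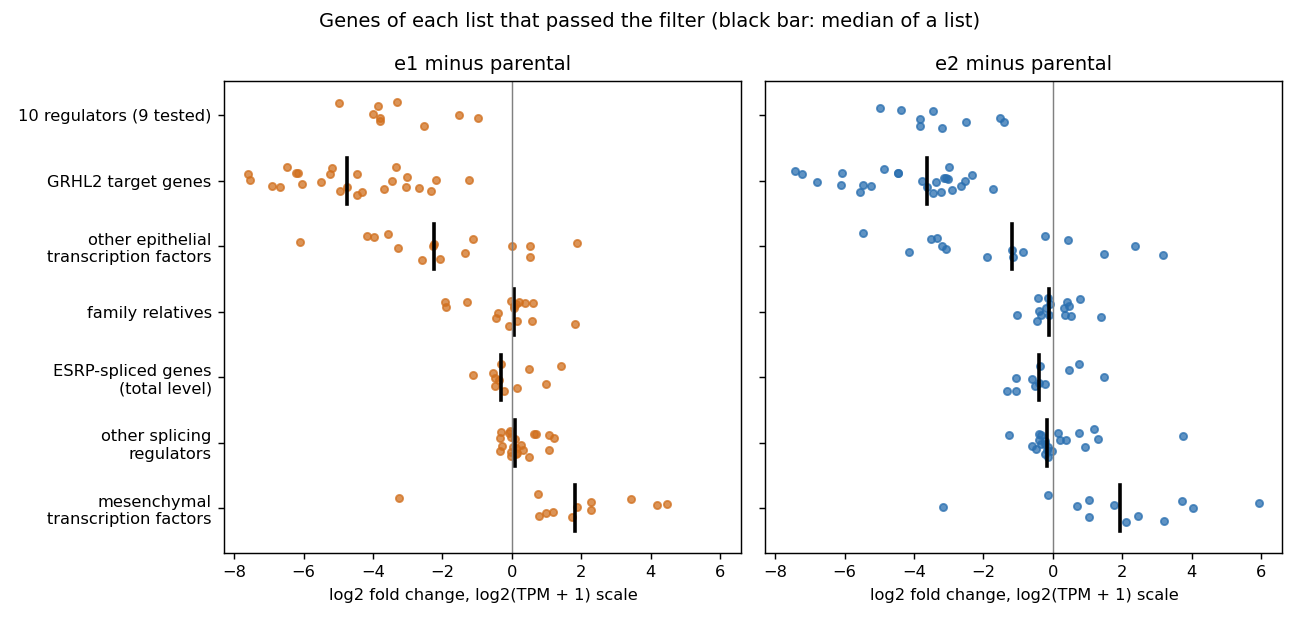
Log2 fold change on the log2(TPM + 1) scale of every tested gene of each list, e1 against parental cells on the left and e2 on the right, with a black bar at the median of each list other than the regulators themselves. The GRHL2 target genes all lie below 0, with medians of -4.74 and -3.63, and the mesenchymal transcription factors lie above 0 apart from Snai3 in e1 and Snai2 and Snai3 in e2.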

How the data were processed

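RNA sequencing of 9 libraries (3 groups of 3, from the sample titles) was analysed from the files as the authors deposited them: TPM per gene and, for an alternative, log2 values of the rlog transform. Per the submitters' processing notes, Salmon, DESeq2 and the mm10 build were used. The sources used here give no versions, annotation or strand setting for these. TPM keeps no depth, so no counting interval can be given. The 12769 of 24493 genes that reached 1 TPM in 3 or more libraries entered limma 3.58.1 (R 4.3.3) on log2(TPM + 1), with 3 group means, mean-variance trend and robust empirical Bayes, two-sided, Benjamini-Hochberg adjusted over all tested genes and called under 0.05. The steps were tested on simulated data. The 10 genes, the other lists and the naming rule (all members, up to 2 called genes per direction, list and line, 12 fixed genes, 3 most alike genes per member) were chosen with earlier results of these data known. Rarg, Ap1m2, Spint2, Macc1, Lad1, Elf5, A1cf, the neighbours and the overlapping genes were named outside the rule after their values were seen, and so were some markers; of the marker lists only a few genes are named. Some genes that the rule names are not reported here. Coordinates are from GENCODE M21 (GRCm38), and promoters from RefSeq GRCm38.p6. Sequences were handled with Biopython 1.88 in Python 3.11.15. Alternatives were another pseudocount, filters, scalings, the rlog table, a replicate block, 2 groups only, plain empirical Bayes and each library left out.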

Additional observations from a re-analysis of the deposited data

Results flagged for a closer look

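The effects of the 2 lines against parental cells differed for 3 of the 9 regulators tested, by the limma test of e2 minus e1. Over all genes tested, 70.3% were called in either direction, so the count of 3 does not set the regulators apart. The difference was -0.56 for Esrp2 (adjusted p = 0.000278), -0.54 for Klf5 (adjusted p = 0.00178) and 0.53 for Rbm47 (adjusted p = 0.000679). Over the alternatives it ran from -1.07 to -0.48 for Esrp2, from -0.64 to -0.45 for Klf5 and from 0.46 to 1.06 for Rbm47, and each passed the test in all of them. Both effects share the parental libraries. For Esrp2, the part of reads from the overlapping Nfatc3, also lower in e2 than in e1, was not tested.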

How the results depend on the processing

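Under all 18 alternatives every regulator tested stayed lower than in parental cells in both lines and past the threshold. For the 5 that passed the filter through parental libraries alone, such agreement is no support. The number called was 9, with 10 with no filter and 7 with a filter of 5 TPM. Between e2 and e1 it was 3 or 4, and from 3 to 4 over the fits that leave out 1 library. Differences between e2 and e1 that changed sign were all small and not called. For Elf3 they were 0.016 with a pseudocount of 0.1 and 0.013 with the 10 highest genes removed. Leaving out 1 library at a time gave -0.36 to 0.17 for Elf3, with the sign changed without e1 library 2 (0.12), e1 library 3 (0.17) or e2 library 2 (0.002). It gave -0.021 to 0.061 for Ovol2, with the sign changed without e1 library 2 (-0.018) or e2 library 1, and -0.026 to 0.0033 for Esrp1, with the sign changed without e1 library 1. The values that passed under an alternative, for Elf3 and Grhl2, are given above. The replicate block, tried because the titles share library numbers, left 9, 9 and 3 regulators called. Deviations of same-numbered libraries correlated at -0.13 to 0.05, with 0 of 9 pairs over 0.1. Those of libraries with different numbers correlated at -0.16 to 0.13, with 2 of 18 pairs over 0.1. No pairing by number was seen, but with 3 libraries per group this cannot exclude it. The share of higher calls over all genes moved from 55.5% to 49.0% with median-ratio scaling for e2 against parental cells. A pseudocount of 0.1 gave larger changes for genes near 0, such as -8.03 in e1 for Esrp1. The unknown depth limits what can be said of levels under about 0.1 TPM.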
